A study of Mus musculus with 12 samples.

Results

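Among the T cell receptor (TCR) beta chain clonotypes of CD4+ T cells in the spleen and mesenteric lymph nodes (mLN) of mice in a T cell transfer model of colitis, those with a long complementarity-determining region 3 (CDR3) were described. A clonotype is 1 CDR3 nucleotide sequence in a library. A long clonotype reads through in frame without a stop codon and encodes a CDR3 of 16 or more residues, which is 48 or more nucleotides. Of 113663 clonotypes summed over 12 libraries, 93537 were productive, and 8545 of these were long, or 9.14%. They were compared with the 80262 productive clonotypes of 12 to 15 residues, called the reference class. The remaining 4730 productive clonotypes were shorter than 12 residues.

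All donors were of the C57BL/6 strain. WT donors were Prkaa1fl/fl mice, and KO donors carried the same floxed alleles together with CD4-Cre, which deletes AMPKα1, a catalytic subunit of the energy sensor AMPK, in T cells. Mice were 6 to 8 weeks of age according to the methods. Naive CD4+ T cells were injected into Rag2-/- recipients, which have no T or B cells of their own, and donor T cells were sorted after 6 weeks. According to the paper, recipients of WT cells lost weight, whereas those of KO cells kept theirs and had mild inflammation only. WT and KO mice below are the recipients of WT and KO cells. There were 3 WT mice (replicates 1, 3 and 4) and 3 KO mice (replicates 1, 2 and 3), with an mLN and a spleen library from every mouse, so 4 groups of 3. The series therefore shows repertoires after expansion in an empty host, and no library of the cells before transfer was analysed here.

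The CDR3 is the loop of the TCR that lies over the peptide. It is encoded by the end of a V segment, a short D segment and the start of a J segment, which are cut back and joined with untemplated bases during thymic development. Its length is thus the sum of what V, D and J keep and of what is added at the junctions. A long CDR3 can arise from little trimming, from a long J segment or from many added bases.

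The most abundant long clonotype of every mouse, by its mean share over both organs, is printed first, since these are the clones in which long CDR3s reached the highest shares. The CDR3 is read 5′ to 3′, and capitals mark the bases between the end of the V part and the start of the J part. The limits of these parts are those of the deposited alignments. A J part so placed can be longer than the uncut J segment: in WT replicate 3 it has 24 bases, against 23 for TRBJ2-2.
WT replicate 1, TRBV13-3 with TRBJ2-2: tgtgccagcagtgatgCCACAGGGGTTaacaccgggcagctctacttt
WT replicate 3, TRBV19 with TRBJ2-2: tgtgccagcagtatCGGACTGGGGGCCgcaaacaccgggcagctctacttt
WT replicate 4, TRBV17 with TRBJ2-4: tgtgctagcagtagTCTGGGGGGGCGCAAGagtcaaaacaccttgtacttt
KO replicate 1, TRBV5 with TRBJ2-4: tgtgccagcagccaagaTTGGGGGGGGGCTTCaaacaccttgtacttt
KO replicate 2, TRBV5 with TRBJ1-4: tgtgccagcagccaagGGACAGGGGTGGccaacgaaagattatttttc
KO replicate 3, TRBV2 with TRBJ2-7: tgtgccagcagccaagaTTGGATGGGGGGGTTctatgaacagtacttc

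Each of these 6 clonotypes was found in both organs of its mouse. The TRBV17 clonotype of WT replicate 4 was the largest, with 7808 unique molecular identifiers (UMIs, each marking 1 cDNA molecule) in the spleen, or 1.79% of the library (Wilson 95% interval 1.75 to 1.83), and 1671 UMIs in the mLN, or 1.68% (1.60 to 1.76). It ranked 3 and 4 among all clonotypes of these libraries. The TRBV5 clonotype of KO replicate 2 made up 1.51% of the spleen (1.45 to 1.57) and 0.880% of the mLN library (0.830 to 0.932). The TRBV5 clonotype of KO replicate 1 made up 0.838% (0.771 to 0.912) and 0.783% (0.679 to 0.903). The intervals of spleen and mLN overlapped for the TRBV17 clonotype and for KO replicate 1, and lay apart for KO replicate 2.

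The other 3 were unequal between the organs. The TRBV13-3 clonotype of WT replicate 1 had 0.878% of the spleen (0.722 to 1.07) and 0.267% of the mLN library (0.189 to 0.377). The TRBV19 clonotype of WT replicate 3 had 0.636% (0.614 to 0.658) and 0.282% (0.245 to 0.324). In KO replicate 3 the TRBV2 clonotype had 1.97% of an mLN library of only 2488 UMIs (1.49 to 2.59, 49 UMIs) against 0.446% of the spleen library (0.419 to 0.474). In single libraries other long clonotypes could be larger. The largest long clonotype had 3256 UMIs in KO replicate 3 spleen, 1287 in KO replicate 2 mLN, 251 in WT replicate 3 mLN and 64 in WT replicate 1 mLN. These intervals cover counting error only.

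Library totals ranged from 2488 to 493287 UMIs, and a clonotype without a UMI could still have a share of up to 0.000608% in the deepest and 0.121% in the shallowest library (3 counts). The libraries were of 2 kinds. In 5 of them (both organs of WT replicate 1 and KO replicate 1, and KO replicate 3 mLN), at most 5.85% of clonotypes of 1 UMI had a J end unusual for their J segment, and in the other 7 at least 26.1% did. The deepest library of the first kind, KO replicate 1 spleen, had 64882 UMIs and 5.85% such ends. The shallowest of the second, WT replicate 3 mLN, had 68536 UMIs and 26.1%. All libraries of the first kind were thus shallower than those of the second, and kind and library total cannot be told apart. Most long clonotypes, 6675 of 8545, had 1 UMI. Of these, 44.99% differed in at most 4 bases from a clonotype of the same length with at least 20 times as many UMIs in the same library, against 51.4% in the reference class, and 28.3% had an unusual J end (34.0% in the reference class). Of the 778 long clonotypes with 10 or more UMIs, 0 had such an end and 0 were such near copies. The segment tests are therefore also given for clonotypes of 2 or more UMIs.

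Long clonotypes accounted for 6.53% to 11.1% of the productive clonotypes of a library and for 4.21% to 11.6% of its productive UMIs. In the mLN the share of UMIs was 4.21% (Wilson 95% interval 3.86 to 4.59), 5.81% (5.63 to 5.99) and 10.2% (9.99 to 10.4) in WT replicates 1, 3 and 4. It was 5.43% (5.15 to 5.73), 8.17% (8.02 to 8.33) and 5.83% (4.95 to 6.84) in KO replicates 1, 2 and 3. In the spleen, WT mice had 5.14% (4.73 to 5.58), 5.77% (5.70 to 5.84) and 9.61% (9.52 to 9.70), and KO mice 4.86% (4.70 to 5.03), 11.6% (11.4 to 11.8) and 8.63% (8.51 to 8.75). The mice differed by more than their counting error, and the values of WT and KO overlapped in both organs.

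**Figure D1:**
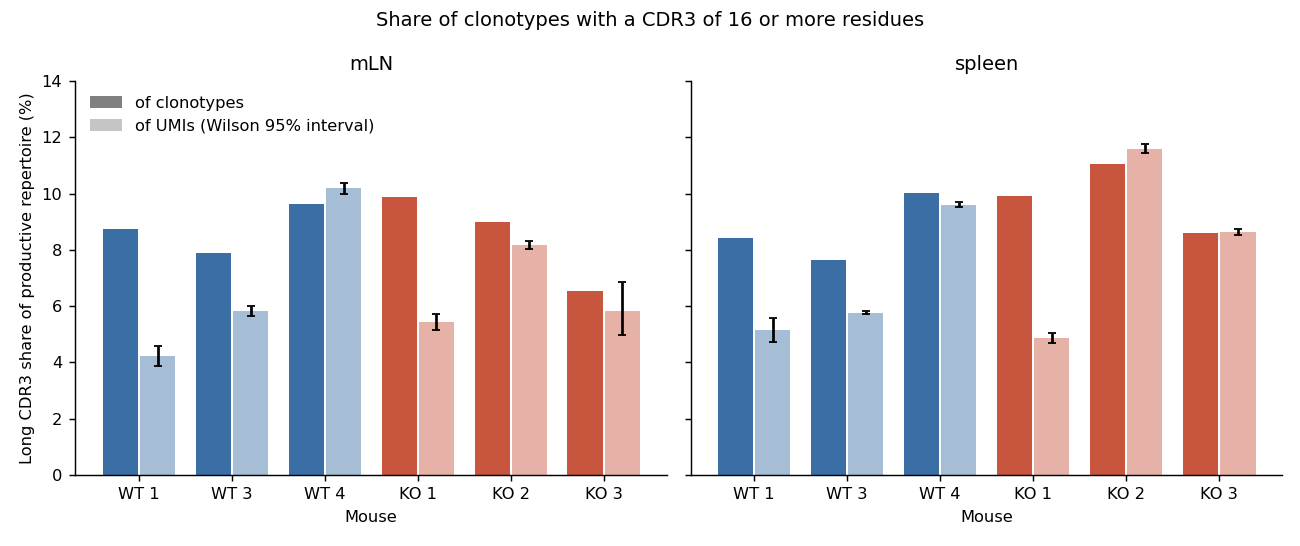
Share of long CDR3s among productive clonotypes (dark bars, %) and among productive UMIs (pale bars, %, with Wilson 95% intervals) in the mLN and spleen library of each mouse, WT in blue and KO in red. The share of UMIs runs from 4.21% in WT replicate 1 mLN to 11.6% in KO replicate 2 spleen, and the genotypes overlap.

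The long class was narrow. Its 5990 clonotypes of 16 residues and 2397 of 17 residues made up 98.2% of it, and 124 had 18 residues and 13 had 19. Just outside the limit, 19302 clonotypes had 15 residues. Clonotypes of 15 and 16 residues had similar sizes, with 9.46% and 10.5% at 10 or more UMIs and a mean of 0.777 and 0.817 log2 UMIs. Clonotypes of 17 residues had 5.63% at 10 or more UMIs. These values pool all libraries. Counted once per mouse, WT replicate 4 held 1298 clonotypes of 17 residues and every other mouse at most 372. Of all long clonotypes of WT replicate 4, 87.0% had 1 UMI. The share of 17-residue clonotypes among the long ones of a mouse ran from 15.4% to 27.2% in 5 mice and was 38.6% in WT replicate 4, whose leading long clonotype has 17 residues. With 2 or more UMIs that share was 20.3% in WT replicate 4 and 10.8% to 20.3% in the others.

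Longer CDR3s were more frequent among out-of-frame rearrangements. These, which are not part of the class, had 47 or more nucleotides in 18.5% ± 2.47 (mean ± SD, n = 6 mice), against 9.17% ± 0.987 of productive ones, and the ranges of 13.8% to 21.1% and 7.62% to 10.2% did not overlap. For 52 or more nucleotides the shares were 3.22% ± 1.04 and 0.234% ± 0.186. Over all sizes, in-frame clonotypes with a stop codon overlapped the productive ones. Of these, 8.40%, 10.1%, 12.02% and 10.5% had 47 or more nucleotides in WT replicates 3 and 4 and KO replicates 2 and 3, and 3 of 8 and 7 of 22 did in WT replicate 1 and KO replicate 1. With 2 or more UMIs the stop codon share ran from 14% to 50%. These were 7 of 50 in WT replicate 4 and 2 of 4 in WT replicate 1. The productive share then ran from 7.54% to 9.44%, so the ranges did not overlap, with 4 to 50 stop codon clonotypes per mouse. All these shares are given as a description.

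Only 1 of the 21 clonotypes of 20 or more residues had more than 1 UMI, a TRBV13-3 and TRBJ2-1 clonotype of 29 residues with 19 UMIs in WT replicate 4 spleen and 0 in the mLN, which allows up to 0.00302% there. It was singled out after its values were seen. The longest clonotype with 10 or more UMIs in both organs of a mouse had 19 residues and joined TRBV5 to TRBJ2-1 in WT replicate 4, with 102 UMIs in the spleen and 34 in the mLN. Both are shown because they mark the upper end of the class, with capitals as above.
TRBV5 with TRBJ2-1, 19 residues: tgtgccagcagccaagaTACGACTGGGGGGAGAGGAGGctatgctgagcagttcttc
TRBV13-3 with TRBJ2-1, 29 residues: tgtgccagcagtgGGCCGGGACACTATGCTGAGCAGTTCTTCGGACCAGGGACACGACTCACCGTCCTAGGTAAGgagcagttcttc
In the second, 53 of the 62 bases between V and J, from base 10 of that stretch on, were identical to GRCm38 chr6:41542756-41542808. This interval holds the TRBJ2-1 segment without its first 2 bases and 5 bases that follow it, so that the sequence contains TRBJ2-1 bases in 2 places.

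Long CDR3s differed from the reference class in all 3 of their parts, and most in the stretch between V and J. Over the 6 mice the mean CDR3 was 48.9 ± 0.235 nucleotides in the long class and 41.2 ± 0.199 in the reference class. Of the difference of 7.72 nucleotides, 4.74 lay between V and J (14.2 ± 0.788 against 9.45 ± 0.647), 2.25 in the J part (20.6 ± 0.285 against 18.4 ± 0.315) and 0.738 in the V part (14.1 ± 0.616 against 13.4 ± 0.297). Among clonotypes with a D call, the D part was 9.67 ± 0.236 nucleotides against 7.79 ± 0.106. The bases between V and D numbered 2.54 ± 0.402 against 1.59 ± 0.287, and those between D and J 2.34 ± 0.373 against 1.68 ± 0.408. Restricted to 2 or more UMIs, the differences were 4.63, 1.98 and 0.913 nucleotides in the same order. Length is the sum of these parts and chose the class, so they are a description with no test.

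**Figure D2:**
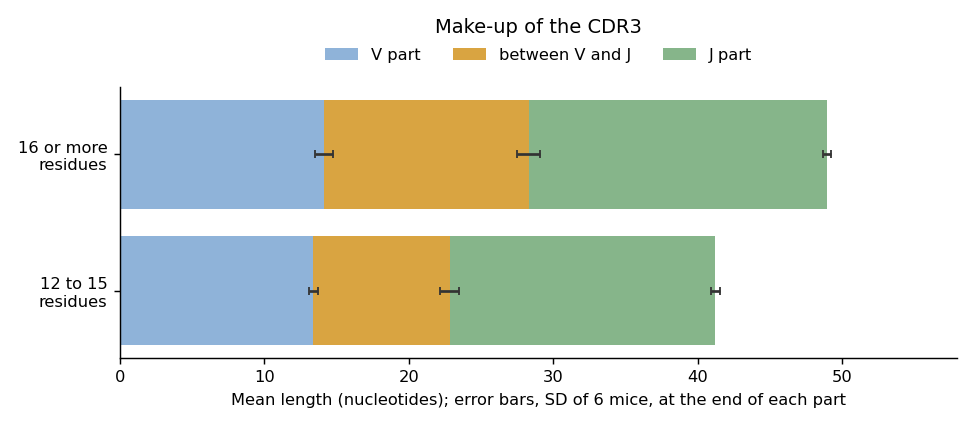
Mean number of nucleotides given by the V part, the stretch between V and J and the J part of the CDR3 (x axis) in the reference class and in the long class, with SD over 6 mice at the end of each part. The stretch between V and J grows from 9.45 to 14.2 nucleotides and the J part from 18.4 to 20.6.

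The D segments carry the G runs seen in the sequences above. RefSeq places both on the plus strand of GRCm38, and TRBD2 is longer by its count of bases, 14 against 12.
TRBD1, chr6:41533201-41533212: GGGACAGGGGGC
TRBD2, chr6:41542163-41542176: GGGACTGGGGGGGC
A D segment was named for 91.5% ± 2.01 of long clonotypes (n = 6 mice) and for 67.5% ± 3.68 of the reference class. Of those, 58.8%, 61.0% and 67.3% were TRBD2 in WT replicates 1, 3 and 4 and 64.2%, 50.9% and 58.9% in KO replicates 1, 2 and 3. In the reference class these shares lay between 38.5% and 43.6%, below every long value. The D part is counted in the length that chose the class, so a test of this share is not independent of that choice. The difference was 19.6 ± 5.54 percentage points, positive in 6 of 6 mice. Its exact two-sided sign-flip test gave p = 0.03125, the smallest that 6 mice allow, and an adjusted p of 0.0833 over 8 comparisons of the classes, so it did not pass 0.05. With 1 D segment named without a tie the difference was 18.1 percentage points, with the same p.

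The J cluster used bears on this share, because TRBD2 lies downstream of the whole TRBJ1 cluster and is joined to TRBJ2 segments by deletion. Among TRBJ2 clonotypes with a D call, TRBD2 was named in 75.7% ± 4.72 of the long and 53.4% ± 2.26 of the reference class. Among TRBJ1 clonotypes with a D call it was named in 8.57% ± 5.92 and 11.9% ± 1.14, although deletional joining does not bring TRBD2 to TRBJ1. The TRBJ2 cluster itself was used by 75.6%, 77.6% and 74.5% of long clonotypes in WT mice and 78.8%, 70.9% and 71.6% in KO mice, and by 62.2% to 66.4% of the reference class. The difference of 9.80 ± 3.28 percentage points was again positive in every mouse, and the exact sign-flip test gave the same p and adjusted p. The J part, too, is counted in the length that chose the class.

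Single J segments differed more sharply between the classes. The bases that J gives to the CDR3 are counted in the length that chose the class. The tests of J segments are thus not independent of that choice. Of 12 J segments tested on clonotypes per segment, 5 passed an adjusted p of 0.05 (edgeR quasi-likelihood test with the mouse as a block), or 41.7%. TRBJ2-2 (log2 fold change 1.28, adjusted p = 4.52e-06) and TRBJ2-3 (0.91, adjusted p = 0.000287) were higher among long clonotypes. TRBJ1-1 (−2.90, adjusted p = 1.01e-12), TRBJ2-7 (−1.72, adjusted p = 2.64e-09) and TRBJ1-2 (−1.50, adjusted p = 0.013) were lower. TRBJ1-2 did not pass without WT replicate 1 (adjusted p = 0.0507) or without KO replicate 1 (0.0694). Counted over clonotypes of 2 or more UMIs, 8 of 12 J segments passed by the same edgeR test, 5 higher and 3 lower. The log2 fold change of TRBJ1-1 was then smaller in size, at −1.86, while those of TRBJ2-7 (−1.70), TRBJ1-2 (−1.25), TRBJ2-2 (1.196) and TRBJ2-3 (0.89) moved less. TRBJ1-6 (0.79), TRBJ2-4 (0.67) and TRBJ2-1 (0.34) passed in addition.

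TRBJ1-1 made up 3.25%, 3.06% and 1.13% of long clonotypes in WT replicates 1, 3 and 4 and 0.559%, 1.61% and 1.33% in KO replicates 1, 2 and 3. In the reference class it made up 10.1% to 14.4%, above all 6 long values. TRBJ2-7 made up 11.4%, 4.68% and 5.38% in WT and 3.91%, 4.89% and 5.51% in KO mice, against 16.01% to 19.9% in the reference class. WT replicate 1 stood highest with 14 of its 123 long clonotypes, and the classes did not overlap.

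TRBJ2-2 made up 13.0%, 13.1% and 14.7% of long clonotypes in WT and 13.4%, 10.5% and 9.24% in KO mice, against 3.72% to 6.21% in the reference class. TRBJ2-3 made up 13.8%, 14.95% and 15.4% in WT and 23.5%, 14.2% and 20.98% in KO mice, against 7.87% to 11.46%. All 6 mice showed the direction for both segments, without overlap. TRBJ1-2 overlapped: KO replicate 3 had 5.51% among long clonotypes and the reference class 4.36% to 7.46%.

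The J segments differ in how many bases they can give to the CDR3. Those called are shown with TRBJ1-6, the longest and not called (log2 fold change 0.92, adjusted p = 0.148). Positions and sequences are those of RefSeq for GRCm38, plus strand, and capitals mark the bases that the alignments of the deposited tables place inside the CDR3 when nothing is trimmed.
TRBJ2-7, chr6:41543810-41543856: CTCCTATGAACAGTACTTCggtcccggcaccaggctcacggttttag
TRBJ1-1, chr6:41533864-41533911: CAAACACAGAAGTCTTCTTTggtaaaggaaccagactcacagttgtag
TRBJ1-2, chr6:41534001-41534048: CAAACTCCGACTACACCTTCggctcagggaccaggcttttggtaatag
TRBJ2-3, chr6:41543223-41543271: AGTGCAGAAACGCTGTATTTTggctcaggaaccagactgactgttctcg
TRBJ2-2, chr6:41542957-41543007: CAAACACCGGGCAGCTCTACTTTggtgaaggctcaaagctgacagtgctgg
TRBJ1-6, chr6:41535554-41535606: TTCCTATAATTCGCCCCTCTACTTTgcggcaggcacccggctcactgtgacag

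The 3 lower segments have 19, 20 and 20 such bases and are the shortest of the 12. Of all their clonotypes of 12 or more residues, 2.84% ± 0.895 were long (n = 6 mice, from 1.90% to 4.39%). For the segments with 21 or 22 bases the share was 12.3% ± 2.01 (9.74% to 14.4%), and for those with 23 to 25 bases 15.9% ± 2.94 (12.9% to 19.9%). Within these groups the segments were not alike. TRBJ2-3 and TRBJ2-5 both have 21 bases, with shares of 17.1% ± 4.67 and 8.33% ± 2.29, and TRBJ2-2 and TRBJ1-4 both have 23, with 20.6% ± 4.62 and 9.95% ± 5.91. Over the 12 segments the log2 fold change and the number of bases had a Pearson r of 0.717 and a Spearman rho of 0.737. These bases are counted in the length that chose the class, and the correlation is a description over segments of the same libraries.

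**Figure D3:**
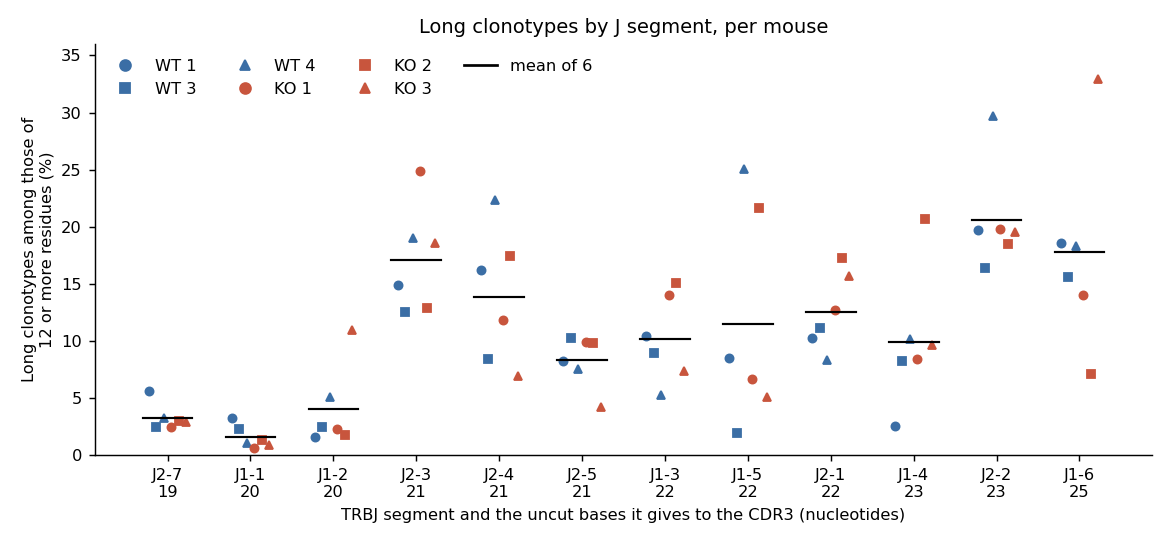
Percentage of long clonotypes among clonotypes of 12 or more residues (y axis) for each TRBJ segment (x axis, ordered by the uncut bases it gives to the CDR3), with 1 point per mouse and a line at the mean of 6. The segments with 19 or 20 bases lie lowest, with means from 1.57% for TRBJ1-1 to 4.03% for TRBJ1-2, and TRBJ2-2 has the highest mean, 20.6%.

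V segments also differed, and the bases they give to the CDR3 are counted in the length that chose the class as well. Of 23 tested, 10 passed an adjusted p of 0.05 in the same edgeR test, or 43.5%, 2 higher and 8 lower among long clonotypes. TRBV5 (chr6:41062359-41062803, log2 fold change 0.97, adjusted p = 0.0204) and TRBV2 (chr6:41047556-41047995, 0.82, adjusted p = 0.0324), with positions on the plus strand of GRCm38 from RefSeq, were higher. The largest decreases among the 8 were in TRBV30, TRBV26 (−2.37, adjusted p = 0.000268), TRBV23 (−2.18, adjusted p = 0.00891), TRBV20 (−1.95, adjusted p = 0.00648) and TRBV12-2 (−1.93, adjusted p = 0.0263).

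TRBV5 was the V segment of 22.8%, 19.9% and 20.6% of long clonotypes in WT replicates 1, 3 and 4 and of 21.8%, 19.9% and 7.64% in KO replicates 1, 2 and 3, against 7.75% to 12.1% of the reference class. KO replicate 3 was the exception, with fewer TRBV5 among long than among reference clonotypes. TRBV2 made up 8.94%, 7.97% and 4.66% in WT and 13.97%, 8.69% and 11.6% in KO mice, and was above the reference value of the same mouse in 6 of 6. Leaving out single mice ended both calls: TRBV5 had an adjusted p of 0.0626 without WT replicate 1, 0.0749 without WT replicate 4 and 0.0664 without KO replicate 1, and TRBV2 had 0.0857 without WT replicate 1, 0.0791 without KO replicate 1 and 0.0674 without KO replicate 2. With 2 or more UMIs their log2 fold changes were 0.91 (adjusted p = 1.27e-07) and 0.998 (adjusted p = 2.39e-07), and in KO replicate 3 TRBV5 then made up 15.7% of long and 9.49% of reference clonotypes.

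TRBV30 was the V segment of 0 of 7894 long clonotypes, counted once per mouse, and of 259 of the reference class. With 3 counts over all mice as the floor, its share was at least 9.22-fold lower. TRBV26 had 0.520% to 1.63% of long and 3.42% to 5.48% of reference clonotypes, without overlap. With 2 or more UMIs it had 0% to 4.22% against 3.08% to 4.39%, KO replicate 3 went the other way with 4.22% of long and 3.35% of reference clonotypes, and the log2 fold change was −1.02 (adjusted p = 0.00252). TRBV20 had 0.346% to 2.48% against 2.61% to 3.91%, without overlap, and also did not overlap with 2 or more UMIs (0.265% to 3.01% against 3.18% to 4.03%). TRBV23 had 0% to 0.559% against 0.574% to 2.38%, and rested on 25 long clonotypes. TRBV12-2 rested on 21, overlapped between the classes and did not pass with 2 or more UMIs (log2 fold change −0.46, adjusted p = 0.463), nor without WT replicate 4 (adjusted p = 0.128), KO replicate 1 (0.0657), KO replicate 2 (0.0585) or KO replicate 3 (0.0504). TRBV23 did not pass with 2 or more UMIs either (−1.08, adjusted p = 0.175). In that count 11 of 22 V segments passed, 4 higher and 7 lower, and these included TRBV1 (0.43, adjusted p = 0.0311), TRBV24 (1.42, adjusted p = 0.0353) and TRBV31 (−0.71, adjusted p = 0.000908), which had not passed over all sizes.

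Germline length did not order the V segments as it did the J segments. Untrimmed, TRBV30 and TRBV20 give 14 bases to the CDR3, whereas TRBV26 and TRBV23 give 17, as do TRBV5 and TRBV2. Over the 23 V segments the Pearson r between these bases and the log2 fold change was 0.473 and the Spearman rho 0.375, again as a description.

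**Figure D4:**
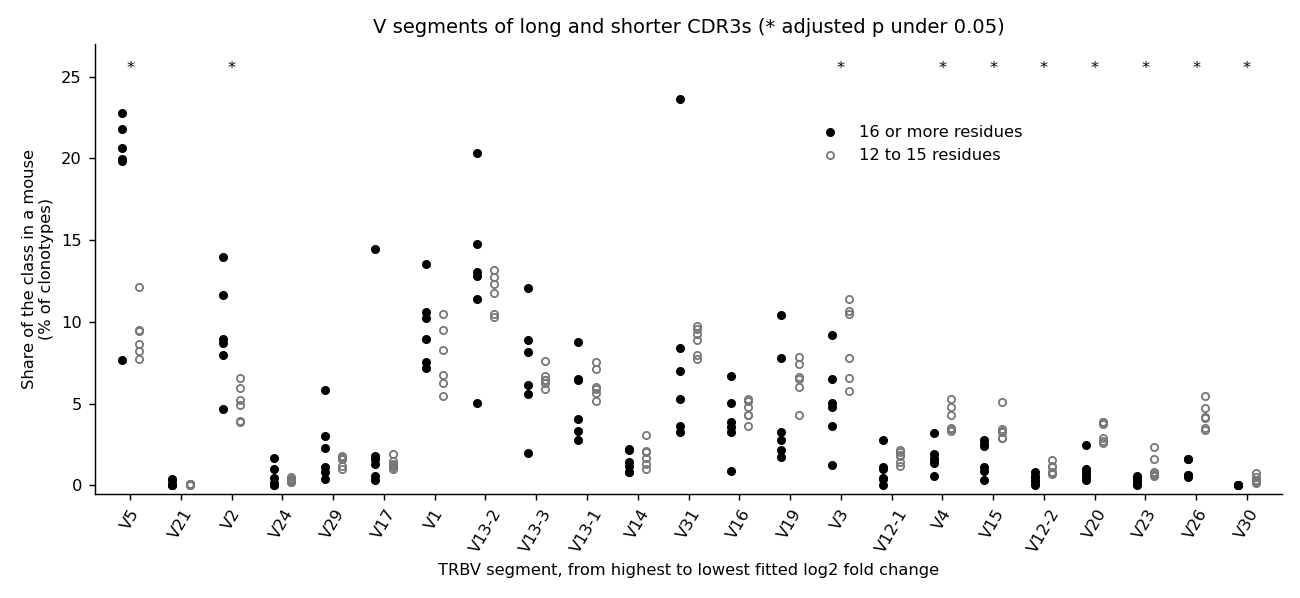
Share of each TRBV segment (x axis, ordered by fitted log2 fold change) among long clonotypes (filled points) and reference clonotypes (open points), in % of clonotypes of the class, with 1 point per mouse. Stars mark the 10 segments that passed, from TRBV5 at the left to TRBV30, with 0 long clonotypes, at the right, and the single high points of TRBV17 and TRBV31 are WT replicate 4 and KO replicate 3.

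Single mice stood apart in their use of some V segments. TRBV17 was the V segment of 14.5% of the long clonotypes of WT replicate 4 and of 0.356% to 1.83% in the other 5 mice. Of its 487 TRBV17 clonotypes there, 97.2% of the entries in single libraries had 1 UMI and 72.01% lay within 6 bases of a clonotype with at least 20 times as many UMIs. That mouse also held the TRBV17 clonotype with 7808 UMIs printed above. TRBV17 was not called between the classes (log2 fold change 0.34, adjusted p = 0.647). TRBV31 made up 23.6% of the long clonotypes of KO replicate 3, where the TRBV31 clonotype with 3036 UMIs was found. With 2 or more UMIs TRBV31 made up 4.48% to 8.20% of long clonotypes over all mice, so no mouse then stood as high. Both segments are described because of these values.

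On the log scale the sizes of long and reference clonotypes differed by less than the spread between mice. The mean log2 UMIs per clonotype, averaged over both organs, was 1.45, 0.996 and 0.578 in WT replicates 1, 3 and 4 and 2.11, 0.810 and 1.26 in KO replicates 1, 2 and 3, against 1.64, 0.910, 0.665, 2.31, 0.848 and 1.26 in the reference class of the same mice. The difference was −0.07 ± 0.11, and the long value was the lower one in 5 mice of 6 (p = 0.156 by the exact sign-flip test, adjusted 0.3). Between mice the means differed far more, with WT replicate 1 and KO replicate 1, whose libraries had few unusual ends, at the top. The plain mean, which the largest clones dominate, was 5.06 UMIs per long against 11.4 per reference clonotype in WT replicate 1 mLN, 10.1 against 19.4 in KO replicate 1 mLN, 21.5 against 47.6 in KO replicate 1 spleen and 17.96 against 23.9 in WT replicate 3 spleen. It was lower for long clonotypes in every library other than both of WT replicate 4 and the spleens of KO replicates 2 and 3, and was not tested. Clonotypes of 10 or more UMIs made up 13.9% ± 6.14 of the long and 15.4% ± 7.93 of the reference class (exact sign-flip p = 0.281, adjusted 0.375). Without near copies of larger clonotypes both differences were negative in 6 of 6 mice, at −0.15 log2 UMIs and −2.60 percentage points (exact sign-flip p = 0.03125, adjusted 0.05 for each). That removal was chosen after seeing the data. It took out more reference than long clonotypes, 51.4% against 44.99% at 1 UMI and 16.9% against 3.57% at 2 to 9 UMIs. Small clonotypes were thus removed unequally from the classes, and these tests are not independent of that.

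By size range, long clonotypes made up 9.09% ± 1.42 of productive clonotypes of 1 UMI, 8.67% ± 1.04 of those with 2 to 9, 8.79% ± 1.28 of those with 10 to 99 and 5.39% ± 3.39 of those with 100 or more (n = 6 mice). In the last range, 0 of 15 clonotypes were long in each library of WT replicate 1 and 0 of 2 in KO replicate 3 mLN, and 4.55% to 8.85% in the other 9 libraries. Among the 10 largest productive clonotypes of a library, 0 to 2 were long. The first long clonotype had rank 3 to 44.

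Organ sharing did not separate the classes. Of mLN clonotypes with 10 or more UMIs, 97.9% ± 2.79 of the long and 98.4% ± 1.40 of the reference class were also found in the spleen of the same mouse (exact sign-flip p = 0.438, adjusted 0.5). All 11, 59 and 3 long ones were found in WT replicate 1, WT replicate 3 and KO replicate 3, and 83 of 85, 27 of 28 and 67 of 72 in WT replicate 4, KO replicate 1 and KO replicate 2. Of spleen clonotypes with 10 or more UMIs, 78.9% ± 30.2 and 79.1% ± 29.3 were found in the mLN (p = 0.812 by the same exact test, adjusted 0.812). Here KO replicate 3 stood apart, with 15 of 81 long and 191 of 942 reference clonotypes found in an mLN library of 2488 UMIs, while the other 5 mice had 80.9% to 100% and 81.7% to 98.6%. The long share of clonotypes, each library drawn down to 2488 UMIs, was 8.46% ± 1.07 in the mLN and 8.67% ± 0.807 in the spleen (difference −0.209 percentage points, exact sign-flip p = 0.188, adjusted 0.3).

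Long CDR3 proteins were less often met again in another mouse, in 6 of 6 mice. The share of long proteins of a mouse that any of the other 5 also held was 9.92%, 2.65% and 1.49% in WT replicates 1, 3 and 4 and 9.04%, 2.95% and 3.43% in KO replicates 1, 2 and 3. For the reference class it was 26.9%, 5.96%, 4.78%, 21.005%, 7.38% and 7.12% in the same order. The difference was −7.27 ± 5.80 percentage points (exact sign-flip p = 0.03125, the smallest that 6 mice allow, adjusted 0.0833), so it did not pass 0.05. The reference class held 68698 different proteins and the long class 7604, and the part of this number in the difference was not tested. The highest shares were in WT replicate 1 and KO replicate 1, the mice with the fewest clonotypes. Without clonotypes that were 100 times more frequent in another mouse the difference was −7.31 percentage points, and after drawing each library down to 2488 UMIs it was −3.56.

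**Figure D5:**
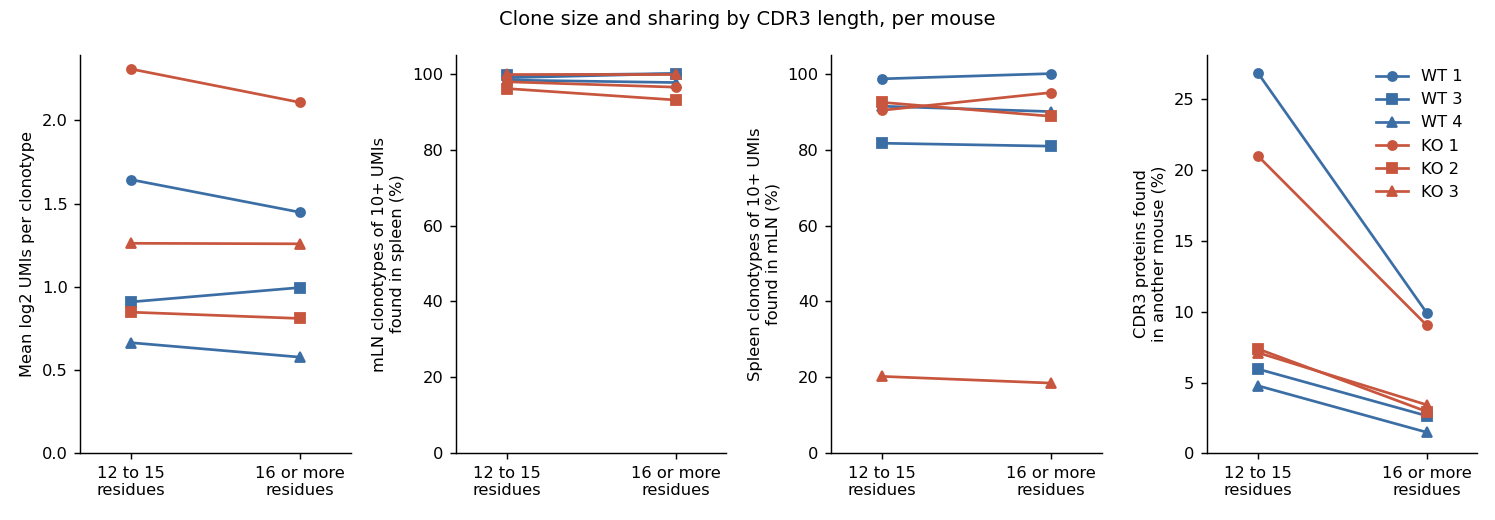
Mean log2 UMIs per clonotype, share of mLN clonotypes of 10 or more UMIs found in the spleen and the reverse (%), and share of CDR3 proteins found in another mouse (%), for the reference class and the long class, with 1 line per mouse. Lines for organ sharing are nearly level, with KO replicate 3 low at 20.3% and 18.5% for spleen clonotypes in the mLN, and all 6 lines fall in the last panel.

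Of the 7604 long proteins, 91 were found in more than 1 mouse, 74 in 2 mice and 17 in 3, and 0 in 4 or more. In the reference class 1 protein was found in all 6 mice. Of the 91, 56 had the same single nucleotide sequence wherever they occurred, or 61.5%, against 33.2% of 2124 shared reference proteins. In 47 of the 91, the mouse with the highest share exceeded the next by 100 times or more. The long protein found in most mice with the most UMIs was that of the TRBV17 clonotype of WT replicate 4. This clonotype had 6 UMIs in WT replicate 3 mLN and 1 each in WT replicate 3 spleen and KO replicate 1 spleen. The part of molecules exchanged between libraries in these few UMIs was not tested.

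Of 543 long proteins with 10 or more UMIs, 7 had that many in more than 1 mouse, or 1.29%. Each of these had 1 nucleotide sequence at that size. In the reference class 165 of 5239 were shared in this way (3.15%), and 48 of the 165 had 1 nucleotide sequence (29.1%). The 7 long proteins are described because of these values. In 4 of them the mice were KO replicates 2 and 3, with 10 to 20 UMIs in KO replicate 2 mLN, 0 in KO replicate 2 spleen and 894 to 3036 in KO replicate 3 spleen. Of the 21 long clonotypes with 100 or more UMIs in KO replicate 3 spleen, 12 were found in KO replicate 2 mLN and 3 in KO replicate 2 spleen. Of the 17 such clonotypes in WT replicate 4 mLN, 9 were found in WT replicate 3 mLN, with at most 6 UMIs. The part of molecules exchanged between libraries was not tested, in KO or in WT mice. The remaining 3 of the 7 proteins were shared by WT replicates 3 and 4. Of these, 1 was of like size in both organs of both mice. It had 52 and 365 UMIs in the mLN and spleen of WT replicate 3 and 42 and 286 in those of WT replicate 4. These are 0.0759%, 0.0740%, 0.0422% and 0.0655% of their libraries. It joined TRBV5 to TRBJ2-3 and has 17 residues.
TRBV5 with TRBJ2-3, WT replicates 3 and 4: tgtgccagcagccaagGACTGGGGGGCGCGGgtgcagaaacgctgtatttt

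Other long proteins were reached by different rearrangements. With 2 or more UMIs, 34 long proteins were found in more than 1 mouse, and 7 of them had more than 1 nucleotide sequence, against 498 of 878 in the reference class. The one with the most UMIs among those built from different V segments had 304 UMIs in the mLN and 69 in the spleen of KO replicate 2, and 2 and 5 in WT replicate 4. Its pair of sequences encodes the same protein.
KO replicate 2, TRBV4 with TRBJ2-3: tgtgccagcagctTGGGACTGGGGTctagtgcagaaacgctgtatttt
WT replicate 4, TRBV24 with TRBJ2-3: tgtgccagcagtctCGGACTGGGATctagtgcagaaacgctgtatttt

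The residues in the middle of the CDR3, after the first 4 and before the last 5, differed little in kind. Glycine, which a run of G encodes in any frame, made up 25.7% ± 1.68 of these residues in the long class and 24.0% ± 0.939 in the reference class, and was higher in 6 of 6 mice by 0.273 to 3.77 percentage points. The acidic residues aspartate and glutamate made up 8.72% ± 1.35 and 10.9% ± 0.471, and were lower in 6 of 6 mice by values from −0.318 to −4.85. Both had an exact sign-flip p of 0.03125 and an adjusted p of 0.125 over 8 residue classes, so 0 of 8 passed. A fixed number of residues was left out at each end, so the middle is longer in the long class. The shares of V, D and J bases in it follow from the length that chose the class. The residue tests are thus not independent of that choice. The aromatic residues (6.77% ± 1.62 against 5.55% ± 0.342) and the basic ones (8.88% ± 1.77 against 9.79% ± 1.51) had adjusted p-values of 0.208 in the same exact test, and WT replicate 4 went against the other 5 mice in both.

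Long clonotypes were compared between recipients of KO and of WT T cells, which differ in AMPKα1. At 2488 UMIs per library the long share of clonotypes was 8.58% ± 0.180 in WT and 8.76% ± 1.25 in KO spleen, and 8.46% ± 0.209 in WT and 8.46% ± 1.68 in KO mLN (n = 3 mice each). The long share of UMIs was 6.84% ± 2.42 and 8.36% ± 3.38 in the spleen and 6.73% ± 3.09 and 6.48% ± 1.48 in the mLN. Exact two-sided permutation tests over the 20 assignments gave p from 0.7 to 1 for these 4 shares and for the differences between the classes in clone size and organ sharing, and an adjusted p of 1 for all 6. The smallest p that 3 against 3 mice allow is 0.1, so these tests could not have passed 0.05 and do not show that the genotypes were alike. Within the libraries with many unusual ends, the spleen difference in UMIs was 2.43 percentage points (2 against 2 mice), and within those with few it was −0.275 (1 against 1).

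In tests of V and J use among long clonotypes between KO and WT, 0 of 17 V segments and 0 of 12 J segments passed (0% each, edgeR quasi-likelihood test). The smallest p among V segments was that of TRBV17 (log2 fold change −2.63, adjusted p = 0.171), whose WT values were 1.63%, 1.33% and 14.5% and whose KO values were 0.559%, 1.83% and 0.356%. WT replicate 4 alone was high. At an unadjusted p of 0.05, 4 V segments and 0 J segments were below, and the smallest J value was that of TRBJ2-4 (−0.51, adjusted p = 0.577). Whether the difference between classes depended on genotype was tested as an interaction, and 0 of 23 V segments and 0 of 12 J segments passed (0% each). TRBV15 had the smallest p (interaction −2.31 on the log2 scale, adjusted p = 0.111 in edgeR). It made up 2.44%, 2.77% and 2.53% of long clonotypes in WT mice and 1.12%, 0.877% and 0.356% in KO mice, without overlap, against 2.87% to 3.46% and 3.29% to 5.08% of the reference class. These shares are of 123 long clonotypes in WT replicate 1 and 179 in KO replicate 1. With DESeq2 the TRBV15 interaction had an adjusted p of 0.0475. In edgeR it was −0.50 with 2 or more UMIs (adjusted p = 0.888) and −2.78 with 10 or more (adjusted p = 0.370).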

How the data were processed

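TCR beta chain transcripts of donor CD4+ T cells from 6 mice (12 libraries) were profiled by the authors with a 5′ RACE kit that adds UMIs, sequenced on a MiSeq, and processed with MIGEC and MiXCR at default parameters. Versions and the V(D)J reference are not given in the sources used here. The deposited clone count was taken as the number of UMIs per clonotype, since it is a whole number and the authors collapsed reads by UMI. The deposited clone fraction is that count over the library total and served only as a check. The authors downsampled the tables before their own analysis, whereas the deposited tables are at full depth.

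Table entries with the same CDR3 nucleotide sequence were joined. The members and lists were chosen with earlier results of these data known. Measures were computed per library and averaged over the 2 organs of a mouse, or per mouse. Classes were compared over 6 mice by exact two-sided sign-flip tests (64 patterns), genotypes over 3 against 3 mice by exact two-sided permutation tests (20 assignments), with Benjamini-Hochberg adjustment within families of 8, 8 and 6. Clonotypes per V or J segment were tested with edgeR's quasi-likelihood test and Benjamini-Hochberg adjustment over all segments tested, with class totals as library sizes and segments with at least 10 clonotypes in at least 3 columns kept. Shares at common depth are means of 50 draws of 2488 UMIs. Segments named are those that passed, at most 5 in each direction, or that of smallest p where none passed. Other mice, clonotypes and segments are named only where a sentence says why. An unusual J end has last 9 bases that differ from the commonest end of its J segment. Alternatives covered clone size, near copies, the length limit, the reference class, depth, scaling, DESeq2, single organs, blocks and single mice left out. The removal of near copies, the limit of 10 or more UMIs and the unambiguous D call were chosen after seeing the data. The segment tests were also run on simulated data, and the outcome is not given here. Wilson 95% intervals and floors cover counting error only. R 4.3.3, edgeR 4.0.16, DESeq2 1.42.0, Python 3.11.15, pandas 2.3.3, NumPy 2.4.6, SciPy 1.17.1 and matplotlib 3.10.9 were used.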

Additional observations from a re-analysis of the deposited data

How the results depend on the processing

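Of 373 alternative values for the comparisons, 316 kept direction and side of the threshold (counts within 1.5 times), 41 reversed, 14 counts moved and 2 values came to pass. Of the alternative values for single segments and residue classes, 430 kept both, 29 lost their call, 3 came to pass and 4 reversed. None of the 41 reversed values passed its test, and the causes were not tested. Spleen clonotypes found in the mLN, long minus reference (−0.260 percentage points), became 1.06 with 2 or more UMIs, 0.446 without near copies, 0.406 within size ranges and 3.51 at common depth, and ran from −1.24 to 0.418 with 1 mouse left out. The reverse (−0.582) became 0.711 without near copies, 2.20 with 10 or more UMIs only, 1.27 at all sizes and 1.40 at common depth. Proline in the middle of the CDR3 (0.0745) became −0.161 for 17 or more residues and ran from −0.0294 to 0.282 with 1 mouse left out.

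For KO minus WT, the long share of clonotypes in the spleen became −0.00754 with 2 or more UMIs and −0.390 for 17 or more residues, and ran from −0.228 to 0.905 with 1 mouse left out. In the mLN it became 0.297 with 2 or more UMIs, 0.171 without unusual J ends, 0.0428 without clonotypes 100 times higher in another mouse, 0.134 with V and J in the clonotype, 0.0365 without near copies and 0.514 with 10 or more UMIs, and ran from −0.577 to 0.966. The share of UMIs became −0.395 in the spleen for 17 or more residues, and ran from −0.0915 to 3.28 there and from −1.52 to 1.46 in the mLN. The contrast in clone size became 0.00160 with 2 or more UMIs, 0.146 for 17 or more residues, 0.0780 with 10 or more UMIs and 0.0714 at common depth, and ran from −0.0803 to 0.0607. That in organ sharing became −0.0650 without clonotypes 100 times higher elsewhere, −8.96 for 17 or more residues and −0.143 with the reference class extended to 15 or fewer residues, and ran from −2.44 to 1.72.

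V segments called between the classes numbered 10, but 4 with 10 or more UMIs, 3 at common depth, 3 with UMIs per segment and 4 to 11 with 1 mouse left out, the lowest without KO replicate 1. J segments called numbered 5, but 8 with 2 or more UMIs, 3 with UMIs per segment, 8 with DESeq2 and 4 to 6 with 1 mouse left out. TRBJ2-3 did not pass with TMM scaling (log2 fold change 0.53, adjusted p = 0.0641 in edgeR), for 17 or more residues (0.53, adjusted p = 0.343) or with UMIs per segment (0.56, adjusted p = 0.485). For 17 or more residues TRBJ2-2 (1.02, adjusted p = 0.171) and TRBV5 (1.04, adjusted p = 0.242) did not pass either, and TRBV2 was −0.74. With UMIs per segment TRBV5, TRBV2, TRBV20, TRBV12-2 and TRBJ1-2 did not pass (adjusted p from 0.154 to 0.588 in edgeR). Between genotypes 0 V segments passed, but 1 (TRBV17) without a filter on low counts. For J segments the count was 0, but 1 for 17 or more residues and 0 to 1 with 1 mouse left out (TRBJ2-4 without KO replicate 2). Interactions passed for 0 V segments, but for 1 with DESeq2 and 0 to 1 with 1 mouse left out (without WT replicate 3), and for 0 J segments, but for 1 at 17 or more residues, where the TRBV15 interaction was 0.0393.

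WT and KO replicates shared the numbers 1 and 3 but were different mice. Deviations of same-numbered mice correlated at −0.453 and −0.370, so the numbers were not used as pairs. With them as a replicate block, the KO minus WT share was −0.128 for clonotypes in the spleen and 0.618 for UMIs in the mLN, and no genotype call changed. In the class comparisons the mouse was the block. Without it the TRBD2 difference of 19.6 and the TRBJ2 difference of 9.80 passed (exact permutation test, adjusted p = 0.00866 for both), and 8 J segments did. With 6 mice and 8 comparisons, 3 results at the smallest sign-flip p could not pass after adjustment, and 3 against 3 mice could not reach 0.05. The shallowest library, 2488 UMIs, limited organ sharing in KO replicate 3.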
